A study of Mus musculus with 6 samples.

Results

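Transcripts of 10 genes that encode the Aurora kinases, the polo kinase Plk1 and their partners were followed in 6 libraries of mouse oocytes collected at the stage of the germinal vesicle (GV), when the nucleus is intact and meiosis is arrested. The genes were chosen by name (Aurka, Aurkb, Aurkc, Plk1, Tpx2, Birc5, Incenp, Cdca8, Bora and Tacc3), and all 10 were found among the 25239 genes of the count table. The oocytes came from CD-1 females, an outbred strain, aged 4 to 6 weeks. Their cumulus-oocyte complexes, each an oocyte with its follicle cells, were injected with water (3 libraries) or with phthalate metabolites (3 libraries). The metabolites are products of plasticizers, and the labels give neither their names nor their dose. Both groups then stayed in maturation medium with follicle-stimulating hormone until oocytes were collected, and the comparison asks how the mixture changes the oocyte's transcripts. The titles call each library a GV oocyte, while the wording of the protocol allows a single oocyte for each group, and no animal or culture is named. Oocyte 1, 2 or 3 of a group below therefore means the library of that number, whether or not each came from an oocyte of its own. Each group counts as 1 sample, no p-value is given, and the intervals below cover counting error only.

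Aurora and polo kinases are the enzymes that build and use the division spindle. Aurora A sits at spindle poles, where Tpx2 binds and activates it, and together with Bora it switches on Plk1. Aurora B or C works at centromeres inside the chromosomal passenger complex (CPC) with Incenp, survivin (the product of Birc5) and borealin (the product of Cdca8). Aurora C is largely a germ cell enzyme, and mouse oocytes depend on these kinases for spindle assembly without centrioles and for correct chromosome attachment. A fully grown oocyte makes little new RNA, so it stores such messages and later controls their translation in part through the poly(A) tail.

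The libraries held 252267 to 300917 gene counts each. Of 10 oocyte markers, 9 were present and together took from 1.86% to 2.39% of a library's counts, while the marker Sohlh1 was at 0. The 20 markers of cumulus and granulosa cells had 0 to 12 counts per library, summing to 11 after water and 17 after phthalate, and 10 of them, among them Amh and Foxl2, were at 0 in every library. Mki67 and Top2a, listed as markers of dividing somatic cells, had together 61 to 105 counts per library. Whether these counts came from the oocyte or from other cells was not tested. The 10 genes of the set took from 0.331% to 0.362% of the gene counts of a library, with 929, 1036 and 991 counts after water injection and 912, 989 and 909 after phthalate injection, in the order of oocytes 1, 2 and 3 that is kept below.

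The messages of all 3 Aurora kinases end in sequence that holds the cytoplasmic polyadenylation element TTTTAT, which in stored oocyte messages recruits the machinery that lengthens the tail. The libraries were primed with oligo(dT), so the 3′ end is also where reverse transcription begins. The windows below come from GENCODE M21 transcripts (GRCm38, the assembly that the submitters' processing notes call mm10), with the element and any poly(A) signal in capitals, 5′ to 3′ along the message.
Aurka, chr2:172356229-172356258, minus strand: tattTTTTATgttggagttctgtcatgtat
Aurkb, chr11:69051624-69051653, plus strand: aacaTTTTATAATAAAgtcttaaatgtttc
Aurkc, chr7:7003044-7003073, plus strand: tctcTTTTATgaagtgatgttaATTAAAac
Tpx2, chr2:152894616-152894645, plus strand: ttgaTTTTATatatttggtttttagaggcg

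The element starts 59 bases from the annotated end in Aurka, 37 in Aurkb and 44 in Aurkc. In Aurkb it runs directly into the poly(A) signal AATAAA. The Tpx2 window, 35 bases from the end, belongs to a transcript of 3654 bases; the longest Tpx2 transcript, of 4365 bases, extends past it and holds none in its last 100 bases. TTTTAT or TTTTAAT was searched on the message strand in the last 100 bases of each gene's longest coding transcript, within the 3′ UTR. It was there in 17.74% of 19807 genes and, in this set, in the Aurora kinases alone. In the same windows 78.50% of the genes held the poly(A) signal AATAAA or ATTAAA. In their last 100 bases the Aurka transcripts held neither signal, nor did the Tpx2 transcript of 3654 bases. A match is a description of letters, not of regulation.

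The other sequence shared within the set lies near a start site annotated by RefSeq. TTTGAA, the core of the cell cycle genes homology region known from promoters of mitotic genes, was searched on either strand of the RefSeq promoter windows (GRCm38.p6, 250 bases before to 50 after the start). Of the 6 members with a window, Aurka, Plk1 and Cdca8 held it, 32, 30 and 13 bases downstream of the RefSeq start, as printed here in capitals.
Aurka, chr2:172370521-172370555, minus strand: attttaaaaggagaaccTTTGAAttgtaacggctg
Plk1, chr7:122159448-122159484, plus strand: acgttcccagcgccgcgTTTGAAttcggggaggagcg
Cdca8, chr4:124936882-124936921, minus strand: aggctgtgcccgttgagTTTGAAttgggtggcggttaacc
Among 32851 windows, 17.89% held the letters anywhere and 4.94% in the last 100 bases, where all 3 matches lie. Aurkc, Birc5 and Tacc3 had a window without a match. RefSeq starts can differ from the GENCODE gene spans given below. On the minus strand the GENCODE gene of Cdca8 begins at 124939311, so its printed window lies well inside the gene. That of Aurka begins at 172370535, within its printed window.

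Levels of different genes were compared as counts per 1000000 gene counts (CPM, scaled with TMM factors) per kb of the longest coding transcript. Tacc3 came first, with a mean of 333.0 over the 6 oocytes (range 271 to 417), followed by Birc5 with 269 (224 to 301) and Cdca8 with 239 (202 to 266). Aurkc (153, range 121 to 208) and Aurka (151, range 102 to 190) stood next to each other. Plk1 had 99.0 (86.1 to 118), Incenp 70.3 (57.1 to 86.0) and Tpx2 45.4 (30.3 to 56.2), and at the bottom were Aurkb with 10.1 (0 to 23.5) and Bora with 9.52 (2.43 to 15.5). The ranges of neighbours overlapped from Tacc3 down to Plk1 and again for Aurkb and Bora. They did not overlap between Plk1 and Incenp, Incenp and Tpx2, or Tpx2 and Aurkb. Among 12543 genes with a count and a length, Tacc3 stood at percentile 98.2, Aurka at 95.7, Tpx2 at 86.7 and Bora at 61.0. The order at the top depends on the transcript: with the 947-base Birc5 transcript in place of the 3334-base one, Birc5 reached 947 and Tacc3, at 362 with its own first listed transcript, came after it.

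**Figure D1:**
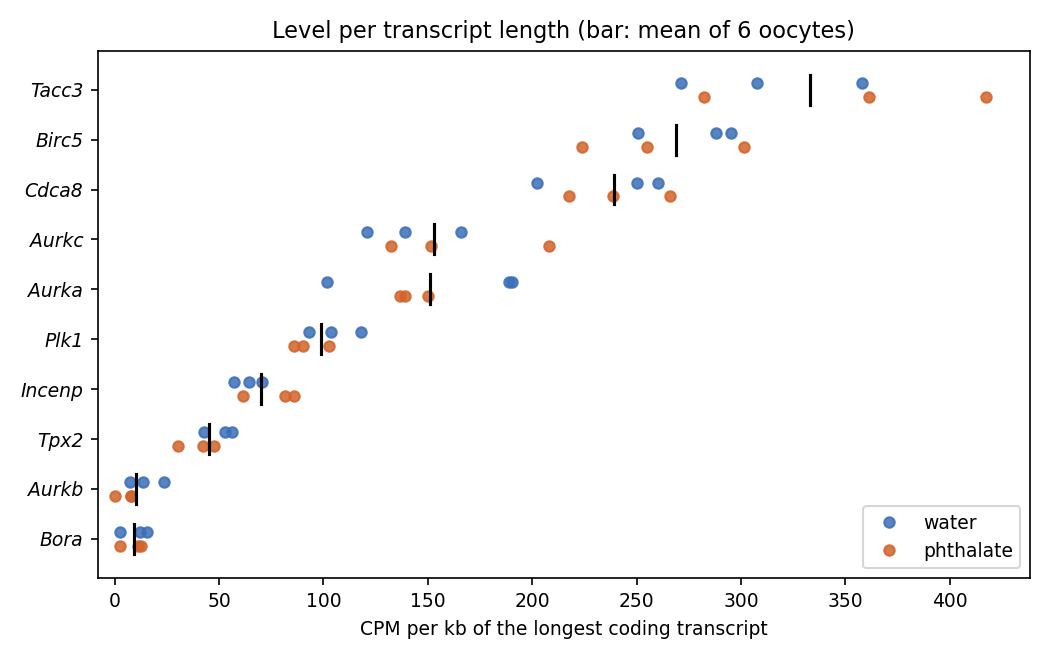
Level of each gene in CPM per kb of the longest coding transcript (x axis, linear), with 1 point per oocyte, water in blue and phthalate in orange, and the mean of the 6 oocytes as a bar. The genes spread from Bora at 9.52 to Tacc3 at 333.0, and in every row the blue and orange ranges overlap.

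Between the treatments the set stayed close to even. A gene was called when its ratio of phthalate over water, from counts summed over the 3 oocytes of a group, was past 1.5-fold (0.585 on the log2 scale). Of the 10 genes, 8 passed the filter on low counts, and 0 of these 8 were past 1.5-fold. Among all 4644 genes tested the share was 15.1%, but each of the 8 averaged 50 counts or more per library, and among the 1078 genes as abundant as that the share was 2.13%, so a count of 0 of 8 is near the background. The median log2 ratio of the 8 was -0.03, with 4 above 0 and 4 below, against 0.0089 over all 4644 genes and 0.02 over the 1078, whose central 90% lay from -0.35 to 0.43. The CPM of the groups overlapped for each of the 10 genes; they did not overlap for 10.1% of all genes tested and 10.7% of the 1078.

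**Figure D2:**
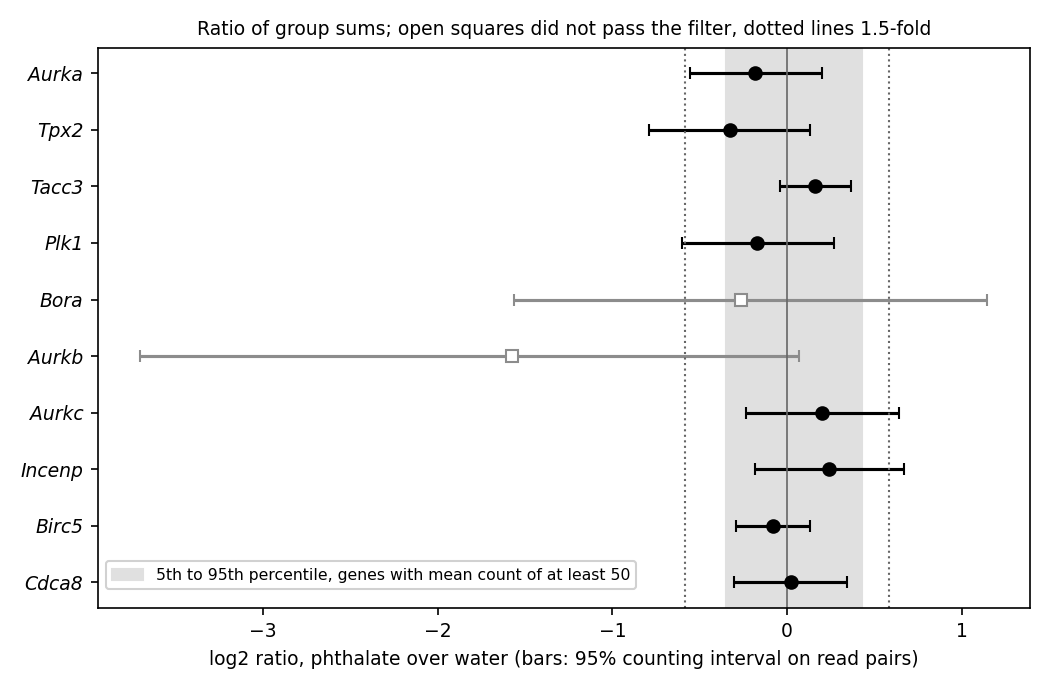
Log2 ratio of phthalate over water for each gene (x axis), with 95% counting intervals on read pairs as bars, the 5th to 95th percentile of the 1078 genes averaging 50 counts or more as the grey band, and 1.5-fold as dotted lines. All 8 filled points lie inside the band and between the dotted lines; the open squares of Bora and Aurkb, which did not pass the filter, have the widest bars.

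Aurka (chr2:172356190-172370535, minus strand), which encodes Aurora A, had 54, 108 and 102 counts after water and 74, 80 and 67 after phthalate. In CPM these were 194, 363 and 360 against 286, 265 and 261. Water oocyte 1 was the lowest of all 6 and the other water oocytes the highest, so the phthalate oocytes lay between them. The log2 ratio was -0.18 (95% counting interval -0.56 to 0.20). It depended on that oocyte, being -0.42 without water oocyte 1 and -0.04 without water oocyte 2.

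Tpx2 (chr2:152847964-152895321, plus strand), the microtubule protein that activates Aurora A, had 64, 73 and 53 counts after water and 54, 56 and 34 after phthalate. It had the lowest log2 ratio of the 8 genes, -0.33 (-0.79 to 0.13). Phthalate oocyte 3 was the lowest, at 132 CPM, while the other phthalate oocytes, at 209 and 186, lay within or just under the water range of 187 to 245. The ratio was -0.18 without phthalate oocyte 3 and -0.46 without phthalate oocyte 1, its range when 1 oocyte was left out. On counts as deposited, rather than read pairs, the interval ended just below 0, at -0.0077. The level of Aurka per unit of Tpx2, both per kb, ran from 1.93 in water oocyte 1 to 4.52 in phthalate oocyte 3 and overlapped between the groups.

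Tacc3 (chr5:33658128-33678995, plus strand) encodes a spindle protein that Aurora A phosphorylates so that it can join clathrin and chTOG on microtubules. Its counts were 248, 309 and 223 after water and 271, 247 and 311 after phthalate. Phthalate oocyte 3 was the highest at 1210 CPM and water oocyte 3 the lowest at 786, with the other 4 mixed between them. The log2 ratio was 0.16 (-0.04 to 0.36). It was lowest without phthalate oocyte 3 (0.02) and highest without phthalate oocyte 2 (0.31). On counts as deposited the interval began just above 0, at 0.017. The Tmem129 gene on the opposite strand overlaps the first bases of Tacc3, and it had 0 to 2 counts per library.

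Plk1 (chr7:122159439-122169873, plus strand), the polo kinase of spindle poles and kinetochores, had 72, 68 and 58 counts after water and 49, 60 and 58 after phthalate. The highest value was in water oocyte 1 (259 CPM) and the lowest in phthalate oocyte 1 (189), and the groups overlapped. Its log2 ratio was -0.17 (-0.60 to 0.27), between -0.25 and -0.09 over the alternatives. The processed pseudogene Plk-ps1 shares 6.56% of the 50-base words of the Plk1 transcripts, so a small part of the reads could have been assigned to either. Bora (chr14:99046222-99074540, plus strand), the cofactor with which Aurora A activates Plk1, was barely sampled, with 2, 10 and 12 counts after water and 8, 2 and 9 after phthalate. Its low value of 2 counts appeared in both groups. The log2 ratio of -0.26 had an interval from -1.56 to 1.15, and its sign turned without water oocyte 3 (0.16) or phthalate oocyte 2 (0.24). It went past 1.5-fold lower without water oocyte 1 (-0.70) or phthalate oocyte 3 (-0.65), and was -0.51 without phthalate oocyte 1. These counts are too few to show a difference of that size.

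**Figure D3:**
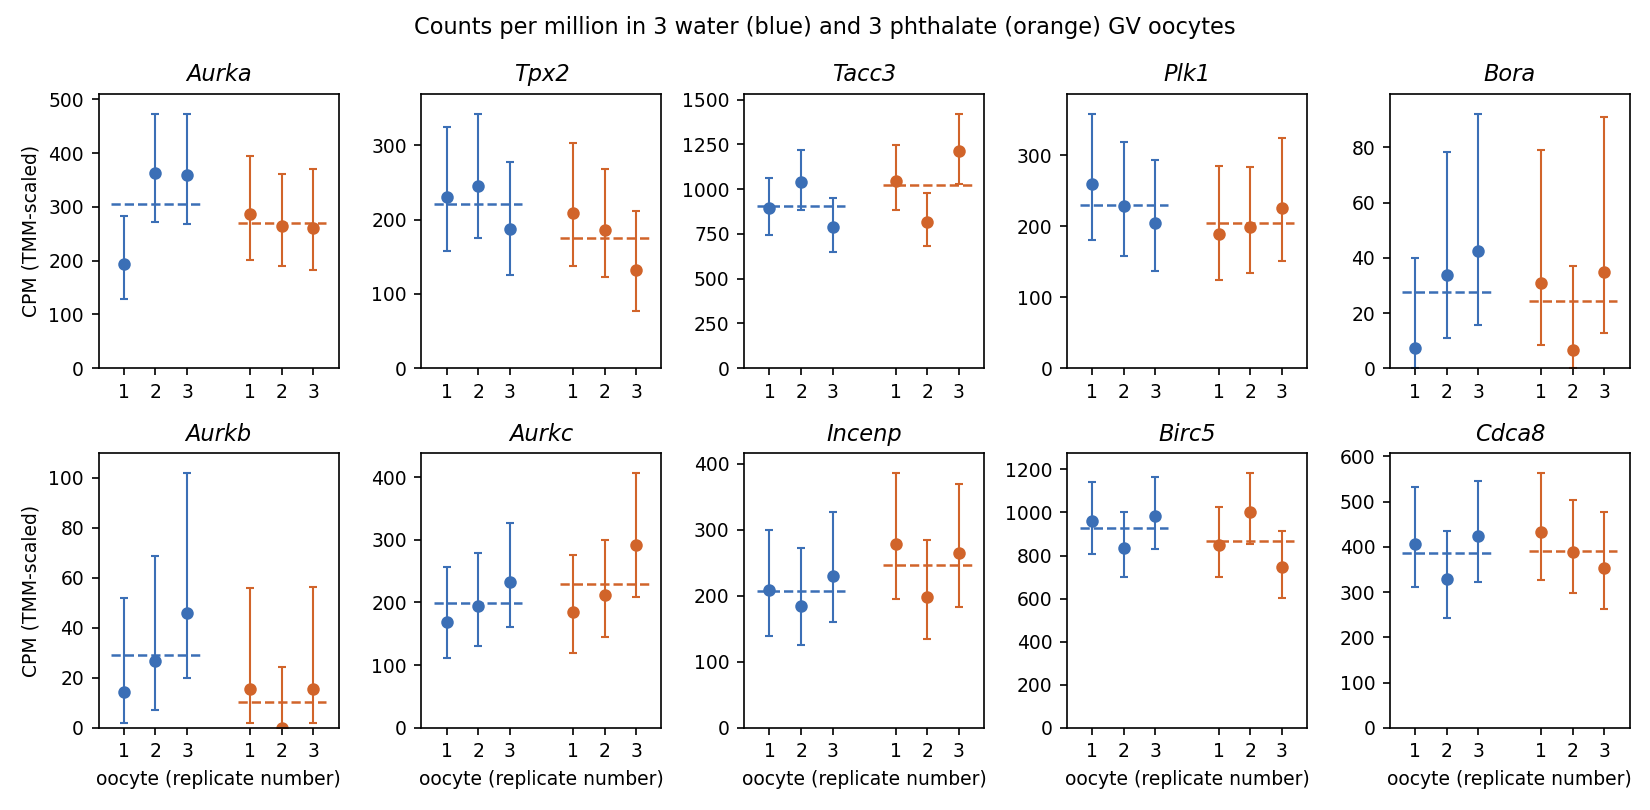
CPM of the 10 genes (y axes, linear from 0, scaled per gene) in water oocytes 1 to 3 (blue) and phthalate oocytes 1 to 3 (orange), with 95% Poisson intervals on read pairs as bars and group means as dashed lines. For Aurka, water oocyte 1 (194) is the lowest point; for Tpx2, phthalate oocyte 3 (132) is; and for Aurkb, phthalate oocyte 2 is at 0.

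Among the Aurora kinases that can serve the CPC, Aurkc was the abundant one and Aurkb was near the detection limit. Aurkc (chr7:6995300-7003091, plus strand) had 47, 58 and 66 counts after water and 48, 64 and 75 after phthalate. Phthalate oocyte 3 was the highest at 292 CPM, and the other 5 oocytes lay between 169 and 233 with both groups mixed. The log2 ratio was 0.20 (-0.24 to 0.64). It ran from 0.0010 without phthalate oocyte 3 to 0.33 without water oocyte 3, and was 0.32 without phthalate oocyte 1. The processed pseudogene Gm12463 on chromosome 4, not analysed here, shares 40.6% of the 50-base words of the Aurkc transcripts, so Aurkc reads may have been lost to it or shared with it; how such reads were counted is not given in the sources used here.

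Aurkb (chr11:69045647-69051664, plus strand), the Aurora kinase of dividing somatic cells, had 4, 8 and 13 counts after water and 4, 0 and 4 after phthalate. Water oocyte 3 held the most, phthalate oocyte 2 held none, and water oocyte 1 (14.4 CPM) fell below phthalate oocytes 1 and 3 (15.5 and 15.6), so the groups overlapped. Counted on read pairs, the 95% Poisson interval of the 0 in phthalate oocyte 2 reaches 24.5 CPM. The sums were 25 and 8, a log2 ratio of -1.57, with an interval on the 13 and 4 read pairs from -3.70 to 0.07. Aurkb did not pass the filter on low counts. Without the filter it was the 1 gene of the 10 past 1.5-fold. Leaving out 1 oocyte gave ratios from -2.03 (without phthalate oocyte 1 or 3) to -0.91 (without phthalate oocyte 2), with -1.88 without water oocyte 1 and -1.09 without water oocyte 3. On counts as deposited the interval ended at -0.38 and left out 0.

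Within an oocyte, Aurkc made up from 40.5% to 59.0% of the Aurora kinase level per kb, Aurka from 38.8% to 55.5% and Aurkb from 0% to 6.21%. The Aurkc share was 52.5%, 40.5% and 43.9% after water and 45.6%, 52.1% and 59.0% after phthalate. The groups overlapped, since water oocyte 1 stood above 2 of the 3 phthalate oocytes. Per kb, Aurkc was the larger in water oocyte 1 and in phthalate oocytes 2 and 3, and Aurka in the others. Which of them came first depends on the length correction. In counts without it, Aurka led in water oocyte 1 (51.4% against 44.8%) and phthalate oocyte 2 (55.6% against 44.4%), and Aurkc led in phthalate oocyte 3 alone (51.4% against 45.9%). The transcripts of the 3 kinases can be told apart, since the longest identical run was 25 bases between Aurkb and Aurkc, 20 between Aurka and Aurkb and 12 between Aurka and Aurkc.

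**Figure D4:**
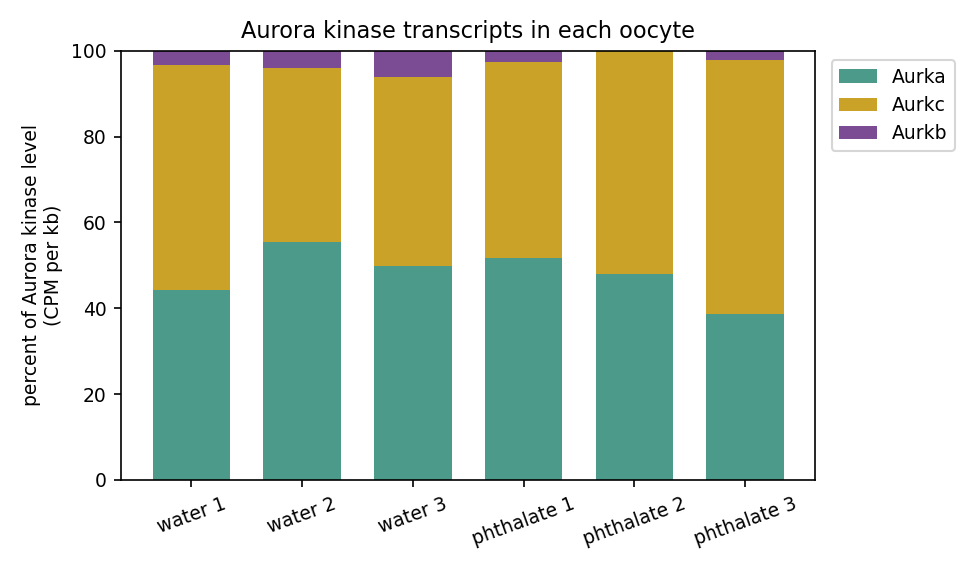
Share of Aurka, Aurkc and Aurkb (stacked, percent of their summed level in CPM per kb) in each of the 6 oocytes. Aurka and Aurkc together take nearly the whole bar in every oocyte, and the Aurkb segment runs from 0% in phthalate oocyte 2 to 6.21% in water oocyte 3.

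The other CPC subunits were well sampled and differed little. Incenp (chr19:9872296-9899551, minus strand), the scaffold that binds and activates the kinase, had 58, 55 and 65 counts after water and 72, 60 and 68 after phthalate. Phthalate oocytes 1 and 3 (278 and 265 CPM) stood above the water range of 185 to 229, and phthalate oocyte 2 (199) within it. Its log2 ratio was the highest of the 8 genes, 0.24 (-0.19 to 0.67), from 0.14 to 0.39 over the alternatives.

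Birc5 (chr11:117849251-117855743, plus strand), whose product survivin docks the complex on phosphorylated histone H3, had 267, 249 and 279 counts after water and 220, 303 and 192 after phthalate. The highest CPM (1004, phthalate oocyte 2) and the lowest (747, phthalate oocyte 3) were both in the phthalate group. The log2 ratio was -0.08 (-0.29 to 0.13). It was -0.21 without phthalate oocyte 2 and 0.0073 without phthalate oocyte 3, the ends of its range when 1 oocyte was left out. Cdca8 (chr4:124918465-124939311, minus strand), whose product borealin ties survivin to Incenp, had 113, 98 and 120 counts against 112, 117 and 91. Its values were the most alike between the groups, with a log2 ratio of 0.02 (-0.30 to 0.34) that turned negative without water oocyte 2 (-0.08) or phthalate oocyte 1 (-0.05) and reached 0.10 without water oocyte 3. The opposite-strand gene 9930104L06Rik, which overlaps Cdca8, had 0 to 3 counts per library.

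The other subunits were set against Incenp within each oocyte. Birc5 stood at 4.47, 4.39 and 4.17 times the Incenp level per kb after water and at 2.97, 4.90 and 2.74 times after phthalate. Cdca8 stood at 3.88, 3.55 and 3.67 times against 3.10, 3.88 and 2.66 times. In both ratios phthalate oocytes 1 and 3 were below every water oocyte and phthalate oocyte 2 was level with or above the highest of them, so the groups overlapped. Aurkc did not follow this order: it stood at 1.87, 2.44 and 2.35 times Incenp after water and at 1.54, 2.46 and 2.55 times after phthalate, with phthalate oocyte 3 the highest. All 3 ratios share the Incenp value, which rests on 28 to 36 read pairs per oocyte, and no counting interval was computed for them. The multiples themselves depend on the transcript lengths used.

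Other genes of these pathways were taken from 3 lists. Of 23 genes around Aurora A, 16 passed the filter; their median log2 ratio was -0.01, with 1 past 1.5-fold higher (6.96% of all genes tested) and 2 lower (8.14%). The 3 with the highest CPM, uncorrected for transcript length, were Kpna2, Pcnt and Tacc2. Kpna2, an importin that holds spindle factors such as Tpx2 inactive, had a log2 ratio of -0.16. The centrosome scaffold Pcnt had 0.07 and Tacc2 had 0.08. Ckap5 encodes chTOG, the microtubule polymerase that Tacc3 carries. It had 46, 65 and 56 counts after water and 23, 54 and 26 after phthalate. Phthalate oocytes 1 and 3 (88.9 and 101 CPM) lay below the water range of 165 to 218 and phthalate oocyte 2 (179) inside it. The log2 ratio was -0.63 (-1.15 to -0.10); it came inside 1.5-fold without phthalate oocyte 1 (-0.44), phthalate oocyte 3 (-0.51) or water oocyte 2 (-0.53), and was -1.03 without phthalate oocyte 2. The others past 1.5-fold had a mean count under 20: Ppp6r2, a subunit of a phosphatase that acts on Aurora A (-0.68), and the GTPase Ran (0.66), the 1 gene of the 16 whose groups did not overlap, against 10.1% of all genes tested. Ppp6r2 came inside 1.5-fold without phthalate oocyte 2 (-0.57) or 3 (-0.43) and was -1.13 without phthalate oocyte 1. Ran came inside it without water oocyte 2 (0.55) or 3 (0.58).

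Of 22 partners and targets of the CPC, 17 passed, with a median of 0.0014, 1 past 1.5-fold higher and 3 lower. Highest in uncorrected CPM were the central spindle kinesin Kif23 (log2 ratio -0.06), the checkpoint kinase Ttk (0.0014) and the kinetochore subunit Nuf2 (0.30). Kif20b, a kinesin of late division, had 30, 45 and 33 counts after water and 18, 27 and 17 after phthalate. Its highest phthalate value (89.5 CPM) was below its lowest water value (108), and the log2 ratio was -0.73 (-1.41 to -0.07), coming inside 1.5-fold without water oocyte 2 (-0.56). Kif20a, the kinesin that carries the CPC to the central spindle, had 20, 24 and 32 counts against 9, 25 and 12 and a log2 ratio of -0.65 (-1.47 to 0.13), with overlapping groups. That ratio came inside 1.5-fold without phthalate oocyte 1 (-0.42), phthalate oocyte 3 (-0.55) or water oocyte 3 (-0.44), and was -1.12 without phthalate oocyte 2. At a mean count under 20 stood Sgo1, the centromere guardian shugoshin (-1.25, from 45 and 18 counts, not overlapping), and the exportin Xpo1 (0.61). Xpo1 came inside 1.5-fold without phthalate oocyte 2 (0.58), phthalate oocyte 3 (0.21) or water oocyte 2 (0.46). The groups also did not overlap for Haspin, whose kinase marks histone H3 for survivin, with 34, 38 and 35 counts against 29, 27 and 30 and a log2 ratio of -0.24; it was named after its values were seen. Kif20b, Sgo1 and Haspin were the 3 of 17 genes without overlap, each lower after phthalate. Over all genes tested the share, with both directions counted, was 10.1%. The counting interval left out 0 for 2 of the 17, Kif20b and Sgo1.

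Of 23 genes of the polo kinase pathway, 16 passed, with a median of -0.09, 1 past 1.5-fold higher and 1 lower. Both had a mean count under 20: Pkmyt1, an inhibitory kinase of Cdk1 (0.69), and the abscission protein Cep55 (-0.59). Pkmyt1 came inside 1.5-fold without phthalate oocyte 2 (0.13) or water oocyte 3 (0.47). Cep55 came inside it without phthalate oocyte 2 (-0.20) or 3 (-0.52) or water oocyte 2 (-0.54) or 3 (-0.40), and as a ratio of mean CPM (-0.55), and was -1.21 without phthalate oocyte 1. Highest in uncorrected CPM were Nudc, a Plk1 substrate (log2 ratio 0.10), the checkpoint protein Bub1b (-0.08) and the oocyte kinase Wee2 (-0.05). The groups overlapped for all 16; they did not overlap for 10.1% of all genes tested. Against the 15.1% of all tested genes past 1.5-fold, the lists had 3 of 16, 4 of 17 and 2 of 16.

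**Figure D5:**
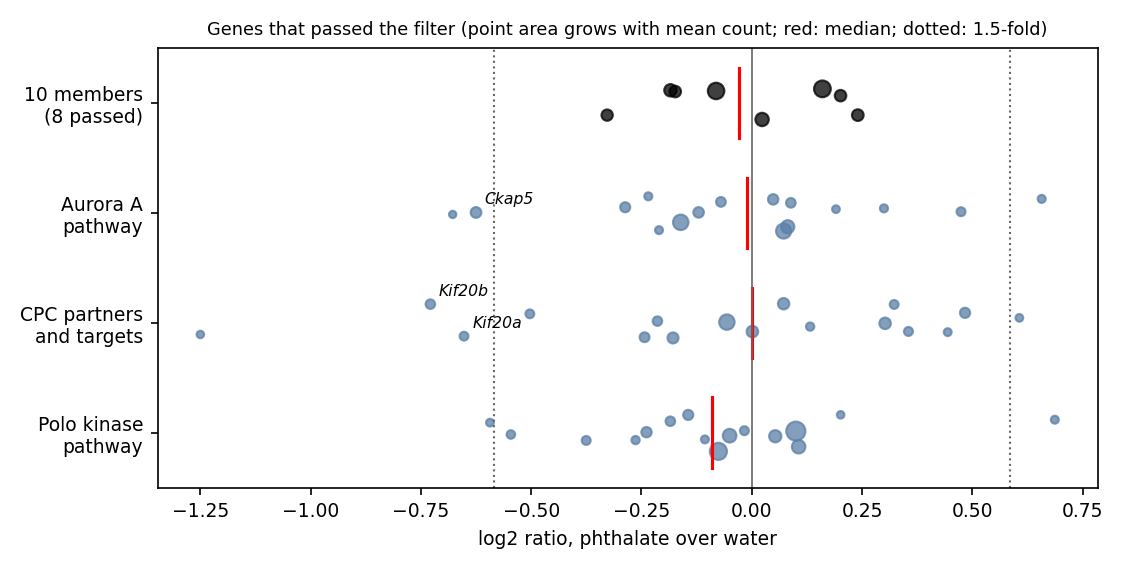
Log2 ratio of phthalate over water (x axis) of the genes that passed the filter, in the set of 10 and in the 3 pathway lists, with point area growing with mean count, medians in red and 1.5-fold dotted. The 8 genes of the set lie between -0.33 and 0.24, and the genes beyond the dotted line with a printed name are Ckap5, Kif20b and Kif20a.

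Tacc3 had the highest mean count of the set, 268. Over 6 libraries the genes with the most similar profile of centred log2 CPM were Txndc5, Npc1 and Rps21, with root-mean-square differences of 0.048, 0.050 and 0.067. They were picked as the smallest differences among 2782 genes, so their closeness is a description only.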

How the data were processed

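The deposited table holds the authors' raw counts for 25239 gene symbols and 92 ERCC spike-ins. The submitters' processing notes name cutadapt, Trimmomatic, HISAT2, DESeq2 and mm10; the counting tool, use of strand and handling of molecular identifiers are not given in the sources used here. Libraries were made with Smart-seq3 and sequenced as 150 bp read pairs, per the labels. Spike-ins stayed out of totals. Genes with a count of 2 outnumbered those with 1 in all 6 libraries, and 68.0% to 71.1% of counts from 1 to 20 were even, so both mates appear to be counted and intervals (95%, exact Clopper-Pearson for ratios, exact Poisson for single libraries) used counts halved to read pairs and rounded up. PCR copies are not independent molecules, so even these are too narrow.

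The filter was edgeR 4.0.16 filterByExpr (minimum count 10, total 15). Ratios divide group sums by totals scaled with TMM factors over the whole table, without pseudocount. A group sum of 0 was set to 3 counts. The calculation was tested on simulated Poisson counts without paired mates or PCR copies, so that run did not test the intervals on read pairs. Lengths, positions and shared words come from GENCODE M21. Members and lists were chosen with earlier results of these data known. Named pathway genes are each list's 3 highest in uncorrected CPM and those past 1.5-fold with a mean count of at least 20. Ppp6r2, Ran, Sgo1, Xpo1, Pkmyt1, Cep55 and Haspin fall outside this rule and were named after their values were seen. Alternatives were DESeq2 1.42.0 size factors, library totals with and without Rn45s, no filter, means of CPM and leaving out each library.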

Additional observations from a re-analysis of the deposited data

How the results depend on the processing

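Over 10 alternatives for each of the 10 genes, 5 of 100 ratios changed sign (Bora and Cdca8 2 each, Birc5 1), and 0 left the counting interval of the gene. These intervals are wide, with a median half-width of 0.40 on the log2 scale over the 8 genes that passed, so staying inside says little. The number of genes past 1.5-fold was 0 under every alternative but 1: without a gene filter it was 1, Aurkb, because 10 genes were then counted instead of 8. Leaving out 1 library gave medians of the set from -0.061 to 0.017, of the Aurora A list from -0.10 to 0.054, of the CPC list from -0.13 to 0.044 and of the polo list from -0.19 to 0.031, so none of these medians had a stable sign. The mean Aurkc share of the Aurora kinase level, 48.9%, was 41.4% without correction for length, as Aurkc has the shortest transcript, from 46.9% to 50.6% without 1 library, and 53.7% with the first listed transcripts, an alternative added after the data were seen, as were those of the pathway genes. No paired analysis was possible because the values are ratios of group sums with no test that a block could enter; the labels tie the shared replicate numbers to no animal or culture. Depth limits Aurkb and Bora most, with 5.50 and 7.17 counts per library on average.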
